A study of Drosophila melanogaster with 5 samples.

Results

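The genes described here set the identity of neuroblasts, the neural stem cells of Drosophila melanogaster, or carry out their asymmetric division: pros, nerfin-1, dpn, ase, wor, SoxN, mira, insc, brat and numb. They were taken by gene symbol, as every probe set to which the array's annotation gives exactly 1 of these names. All 10 genes were found, with 13 probe sets, out of 10844 named genes and 13966 probe sets tested; nerfin-1, mira and SoxN have a pair of probe sets each and the others have 1. The choice of genes used no measured value of its own, but it was made with earlier results of these data known.

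Total RNA of neurons that had been sorted by their green fluorescent protein (GFP) was measured on 5 microarrays. In both groups GFP was expressed from UAS-GFP under Cha-Gal4, a driver with 7.4 kb of DNA of the choline acetyltransferase gene, so the sort selects cells in which that driver is active, which the labels call cholinergic neurons. One group is the embryo culture group, 4 arrays (a, b, c and d) of cells sorted from cultured embryonic cells. The other is larval brain, 1 array of cells sorted from dissociated larval brains. The labels give no culture time, larval age, strain or number of animals, and they do not name the arrays of a group as separate cultures. The p-values therefore rest on how far these 4 samples vary, and that variation may be technical.

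A neuroblast divides into a new neuroblast and a smaller ganglion mother cell, which divides once more into neurons or glia. The transcription factors dpn, ase, wor and SoxN act in the neuroblast or its formation. During division Insc orients the spindle from the apical side, while Mira carries Pros and Brat, and Numb collects beside it, to the basal side that becomes the ganglion mother cell; there Pros enters the nucleus and turns on differentiation. The zinc finger factor Nerfin-1 acts after this step and keeps young neurons differentiated. Most of these genes are best known from dividing progenitors and newborn neurons.

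Each value is the intensity of a probe set on the authors' linear scale, on which each array has the same trimmed mean. A value was read as background if it did not exceed the highest of 23 bacterial, yeast and mouse control probe sets on its array. For embryo culture arrays a to d this limit was 147.8, 200.4, 119.0 and 271.3, and for larval brain it was 82.6. Intensities of different probe sets are not compared with each other, since probes differ in brightness. Differences are larval brain minus embryo culture on the scale of log2(intensity + 47.5), with their standard error (SE) and a limma p-value with Benjamini-Hochberg adjustment over the 13966 probe sets tested. The spread comes from the 4 embryo culture arrays alone, and the fit takes the lone larval brain array to have the same spread; an exact permutation test of 4 arrays against 1 cannot give a p below 0.2. In such bulk samples, fewer cells of a type and less RNA per cell cannot be told apart.

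Of the 13 probe sets, 2 rose in larval brain, those of pros and 1 of nerfin-1, and none of the 13 fell. Of all probe sets 3.26% passed the test, with 0.866% higher and 2.39% lower in larval brain. Larval brain lay above all 4 embryo culture arrays for 7 of the 13 probe sets, in 6 genes (pros, nerfin-1, wor, mira, brat and SoxN), against 25.6% of all probe sets, and below all 4 for 1, that of numb, against 28.6%. The remaining 5 lay inside the embryo culture range. The median log2 difference of the 13 was 1.34, against -0.07 over all probe sets. By limma, 6 of the 13 had an unadjusted p under 0.05, each with a positive difference, against 16.0% of all probe sets in either direction.

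**Figure D1:**
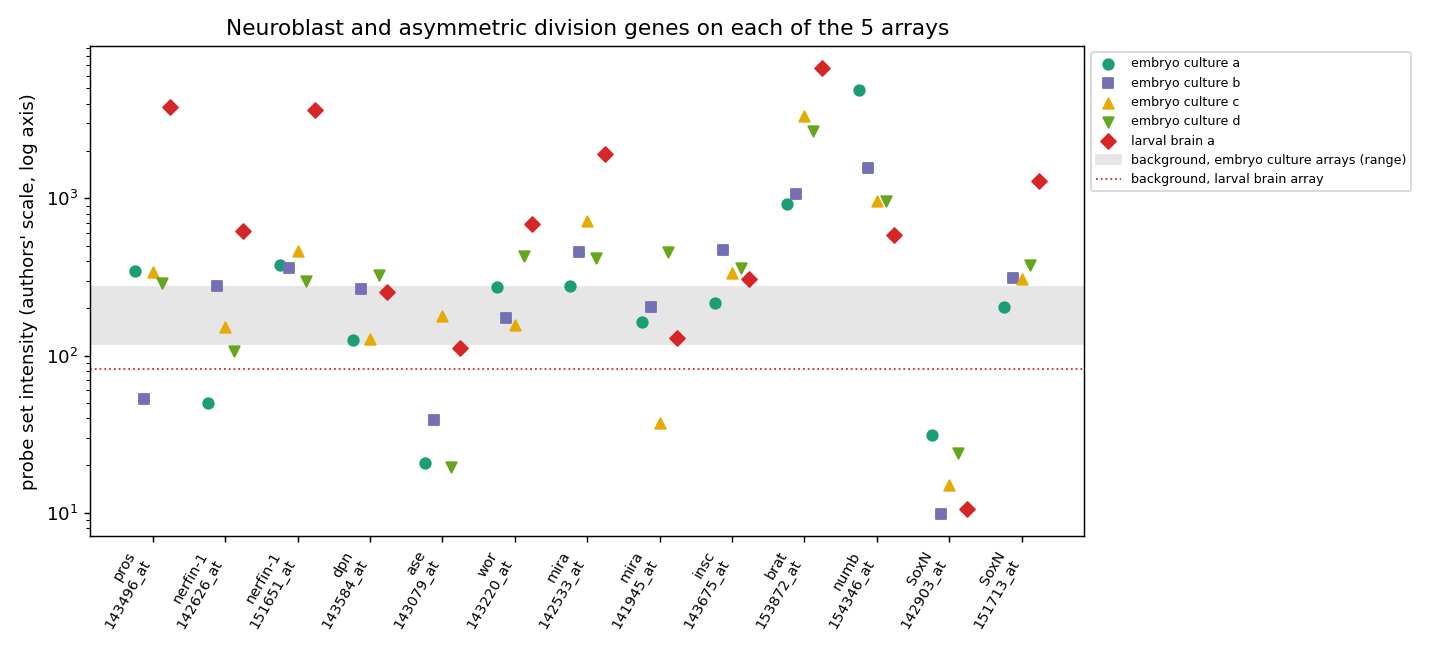
Intensity of each of the 13 probe sets (x axis, gene and probe set) on the authors' scale (y axis, log), with a point for each of the 5 arrays. The grey band spans the background limits of the embryo culture arrays (119.0 to 271.3) and the dotted line is that of the larval brain array (82.6). The larval brain diamonds of pros, both nerfin-1 probe sets, wor, 1 mira probe set, brat and 1 SoxN probe set lie above all embryo culture points, and that of numb lies below them.

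The homeodomain factor gene pros (143496_at), the switch from self-renewal to differentiation, showed the largest difference of the group. In embryo culture its intensity was 344.3, 53.1, 339.1 and 289.5 (arrays a to d), and in larval brain it was 3834.7. The groups did not overlap, and array b alone was under background. The log2 difference was 3.86 ± 0.77 (SE; limma adjusted p = 0.0293, embryo culture n = 4), the 17th highest of the 13966 probe sets. Against single arrays it was 3.31, 5.27, 3.33 and 3.53 for a, b, c and d, so array b sets the upper end. The call was lost without array c (4.03, adjusted p = 0.0523) or d (3.97, adjusted p = 0.0789), while the difference itself stayed at 3.39 or above whichever embryo culture array was left out.

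The brighter of the nerfin-1 probe sets (151651_at) read 375.6, 361.5, 460.1 and 299.7 on arrays a to d and 3658.4 in larval brain. The embryo culture arrays were closely grouped, with a log2 standard deviation (SD) of 0.22 against a median of 0.48 over all probe sets, and larval brain stood far outside them. The log2 difference was 3.15 ± 0.44 (adjusted p = 0.00569, n = 4), the 51st highest, and it kept its call without any 1 of the arrays (3.06 to 3.24, adjusted p up to 0.0178). The second nerfin-1 probe set (142626_at) read 49.6, 276.7, 152.8 and 107.6, above background only on b and c, and 616.1 in larval brain. Here too larval brain was the highest of the 5 arrays, but with a spread of 0.73 (log2 SD) the difference of 1.91 ± 0.77 did not pass (adjusted p = 0.264).

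Among the neuroblast transcription factors, none passed the test, and whether they differ from each other was not tested. The Sox group B gene SoxN, which acts in the forming neuroectoderm and neuroblasts, read 203.9, 313.2, 308.3 and 377.9 on arrays a to d and 1288.6 in larval brain by probe set 151713_at. Larval brain was above each of the 4 arrays, with a log2 difference of 1.96 ± 0.52 that missed the threshold (adjusted p = 0.0866). Its other probe set (142903_at) was under background on all 5 arrays, with values from 9.8 to 31.0, and gives no information on the gene. The Snail family zinc finger gene wor read 273.2, 173.9, 155.8 and 428.0 on arrays a to d, with b under background, and 682.8 in larval brain. Larval brain was again the highest array, yet the difference of 1.34 ± 0.65 did not pass (adjusted p = 0.357).

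The Hes family repressor gene dpn, a marker of self-renewing neuroblasts, read 125.5, 265.9, 127.8 and 325.0 on arrays a to d and 253.2 in larval brain. Its value on array a was under background. The larval brain value lay inside the embryo culture range, with a log2 difference of 0.30 ± 0.70 and a 95% interval from -1.29 to 1.89 (adjusted p = 0.877). The proneural-type gene ase, which marks most neuroblasts and their ganglion mother cells, read 20.6, 38.6, 178.2 and 19.6 on arrays a to d and 111.0 in larval brain. Only array c and larval brain exceeded background, and array c was the highest of the 5. The ase difference was 0.71 ± 0.70, with an interval from -0.87 to 2.28 (adjusted p = 0.684). For dpn and ase, intervals this wide include both no change and a change of several fold.

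**Figure D2:**
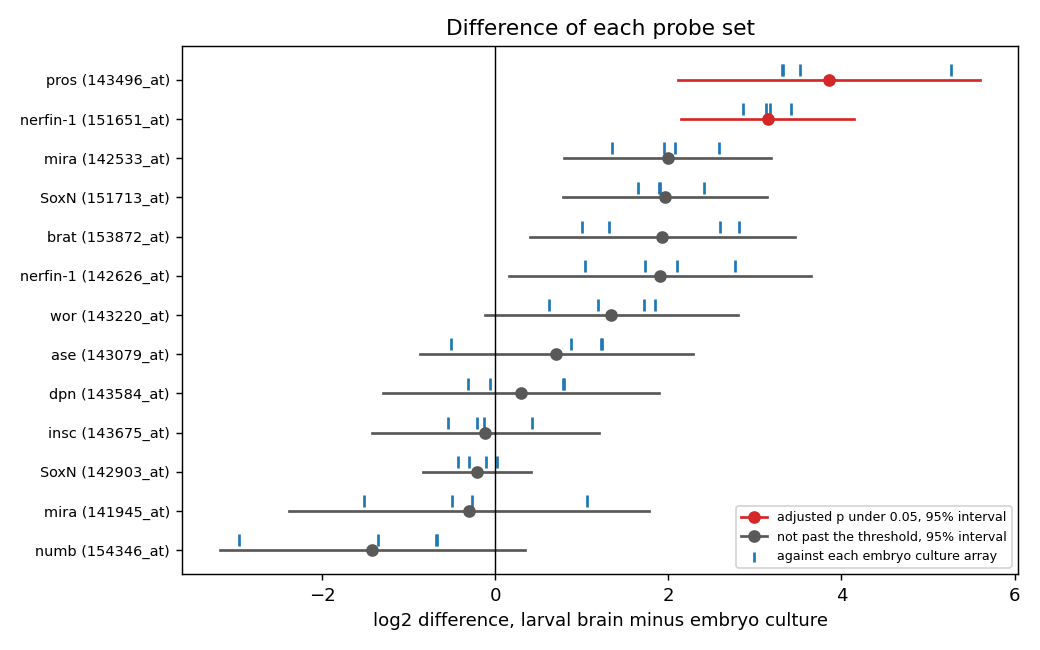
Log2 difference of each probe set, larval brain minus embryo culture (x axis), for the 13 probe sets ordered by size (y axis). Circles are limma estimates from 4 arrays against 1 with their 95% intervals, red where the adjusted p is under 0.05, and blue ticks are the differences against each embryo culture array. Those of pros (3.86) and nerfin-1 (3.15 for 151651_at) are in red, and wor, ase, dpn, insc, numb, SoxN (142903_at) and mira (141945_at) have intervals that include 0.

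The genes of the division machinery had 0 of 5 probe sets past the threshold by limma, with 2 of them, of mira and brat, at an unadjusted p under 0.05 (16.0% of all probe sets). For mira, which encodes the adaptor that carries Pros and Brat to the basal cortex, probe set 142533_at read 278.5, 458.0, 719.0 and 417.1 on arrays a to d and 1911.3 in larval brain. All of these lay above background and larval brain was the highest, but the difference of 1.99 ± 0.53 missed the threshold (adjusted p = 0.0867). The other mira probe set (141945_at) read 164.4, 202.4, 37.2 and 455.6 on arrays a to d and 129.2 in larval brain, inside the embryo culture range, with a difference of -0.30 ± 0.92 (adjusted p = 0.907). The estimates of the pair of mira probe sets thus differ in sign. That of 141945_at had an interval from -2.38 to 1.78, which includes both directions, and its array c value was under background. Whether the pair differ beyond their error was not tested. The gene insc, whose product links the apical polarity complex to the spindle, read 215.2, 467.2, 336.9 and 359.9 on arrays a to d and 305.5 in larval brain, within the range (-0.11 ± 0.58, interval -1.42 to 1.20, adjusted p = 0.946).

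The basal determinant genes brat and numb had the widest spread between embryo culture arrays among the members read above background on all 4. Brat is a translational repressor that ends self-renewal in the ganglion mother cell. Its probe set (153872_at) read 914.5, 1068.8, 3340.4 and 2664.2 on arrays a to d and 6721.6 in larval brain. Arrays a and b were low, c and d intermediate and larval brain highest. The difference was 1.93 ± 0.68 (adjusted p = 0.193). Numb is an adaptor protein that inhibits Notch in 1 of the daughter cells. Its probe set (154346_at) ran the other way, with 4880.9, 1561.0, 959.0 and 967.6 on arrays a to d and 584.7 in larval brain. Here array a stood far above the rest and larval brain was lowest, with a difference of -1.42 ± 0.78 (interval -3.17 to 0.34, adjusted p = 0.436).

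A measure of RNA quality moved with these genes. The mean log2 ratio of 3′ to middle signal over the control messenger RNAs of eIF-4a, GAPDH and actin, which grows as the 5′ side of transcripts is lost, was 2.45, 2.35, 1.49 and 1.66 in embryo culture (a to d) and 1.15 in larval brain. The order of brat over the 5 arrays is the exact reverse of the order of this index. The order of numb is the same as that of the index, from larval brain, the lowest, through c, d and b to a. Its values on c and d were nearly equal (959.0 and 967.6). The share of all probe sets with either order was not counted, so neither order is shown to be particular to brat or numb. Of the list and marker genes described below, CycE and dlg1 had the order of brat, and vkg had that of numb. With the index as a covariate the brat difference went from 1.93 to 0.34 ± 0.37 and that of numb from -1.42 to 0.16 ± 0.65. Both were already ordered by the index, so this fit is no separate test of them. It also estimates a further coefficient from the same 5 arrays. In it the brighter nerfin-1 probe set was at 3.08 ± 0.55 (adjusted p = 0.0181) and pros at 3.10 ± 0.94 (adjusted p = 0.142). There mira (142533_at) was at 1.33 ± 0.59, SoxN (151713_at) at 1.59 ± 0.65 and wor at 1.28 ± 0.85. A second index used 3′ to 5′ signal, with 5′ values under background set to background. It was 7.02, 6.64, 6.47 and 5.99 in embryo culture (a to d) and 4.24 in larval brain. With it the differences were 3.71 ± 1.22 for nerfin-1 (151651_at), 3.47 ± 2.26 for pros and 0.82 ± 1.45 for mira (142533_at). They were 0.36 ± 1.36 for SoxN (151713_at), -0.02 ± 1.81 for wor, -1.80 ± 1.46 for brat and 3.58 ± 1.43 for numb. The calls of nerfin-1 and pros were lost. On both indices larval brain lay outside the embryo culture range, so these fits extrapolate.

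**Figure D3:**
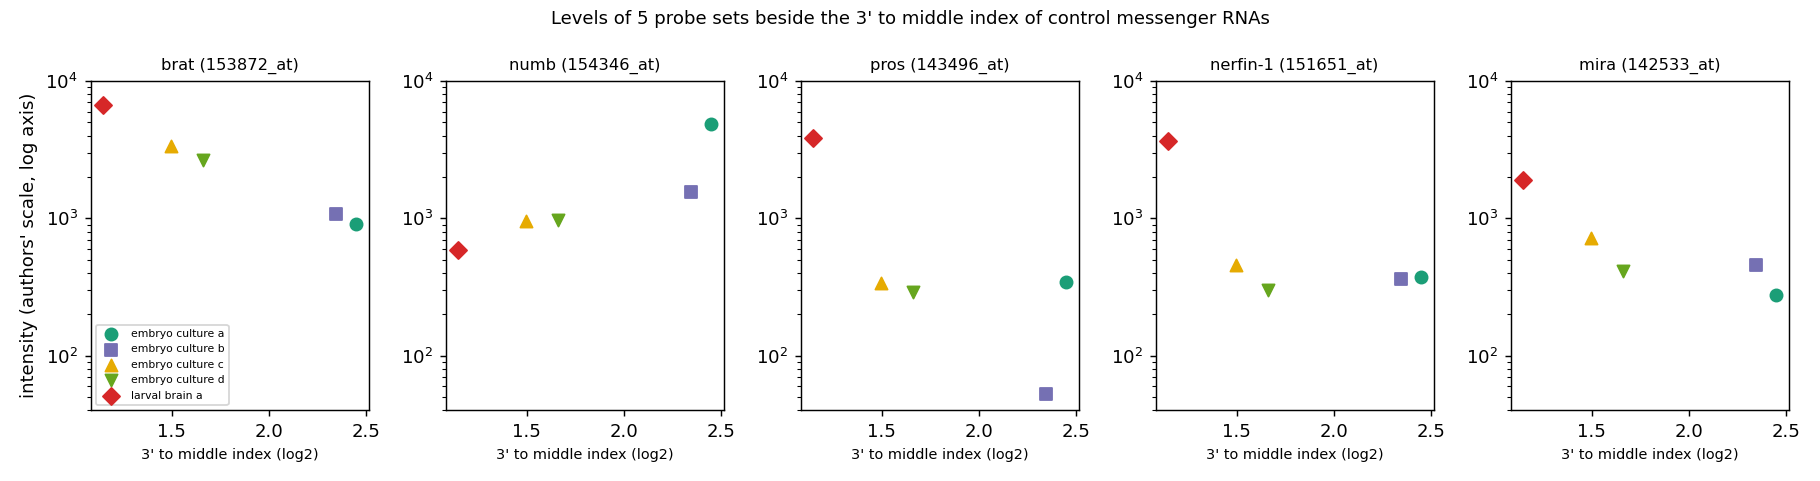
Intensity (y axis, log, authors' scale) of 5 probe sets against the 3′ to middle index of control messenger RNAs (x axis, log2), with 1 point per array. For brat the level falls from 6721.6 to 914.5 as the index goes up over the 5 arrays, for numb it is highest at the highest index, and for nerfin-1 the 4 embryo culture arrays lie between 299.7 and 460.1 over the whole span of the index.

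Arrays c and d, the embryo culture arrays with an index nearer that of larval brain, were also taken alone. Against them the log2 difference was 3.43 for pros, 3.14 for nerfin-1 (151651_at), 1.71 for mira (142533_at), 1.78 for SoxN (151713_at), 1.23 for wor, 1.16 for brat and -0.68 for numb. Against a and b alone it was 4.29, 3.16, 2.27, 2.15, 1.45, 2.71 and -2.15 in the same order. For each of these probe sets larval brain lay outside all 4 embryo culture arrays, so the sign could not differ between the pairs. Only the sizes of the differences carry information here. The mean log2 level of c and d minus that of a and b was 1.55 for brat and -1.48 for numb. The spread rests on 2 arrays in such fits.

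Other regulators of neuroblasts and ganglion mother cells were counted as a list. Of its 17 measured genes, 1 rose, 0 fell and 12 had a positive difference, with a median of 0.44, against 0.821% rising, 2.81% falling and a median of -0.07 over all genes. The riser was E(spl)mdelta-HLH, which encodes a basic helix-loop-helix repressor that Notch activates. It read 119.6, 78.5, 95 and 57.2 on arrays a to d, all under background, and 1612.6 in larval brain, at least 9.17-fold higher. Such a bound is the ratio to the geometric mean of the background limits of the 4 embryo culture arrays, 176 (log2 difference of the fit 3.64 ± 0.65, adjusted p = 0.0182). By limma, 3 of the 17 had an unadjusted p under 0.05, a share near the 17.3% of all genes.

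Genes for cortical polarity and spindle orientation, the partners of insc, mira and numb at the cell cortex, had 0 of 17 measured members past the threshold in either direction by limma, with 3 at an unadjusted p under 0.05, again near the 17.3% of all genes. Differences were positive for 9 and negative for 8, with a median of 0.18. The largest were those of l(2)gl, a cortical tumour suppressor gene, and of the scaffold gene dlg1. For l(2)gl the arrays read 1229.9, 1064.5, 882.7 and 588.3 in embryo culture and 206.8 in larval brain, with larval brain the lowest (-1.91 ± 0.49, adjusted p = 0.0769). For dlg1 they read 29.5, 48.3, 122.6 and 51.1, above background on c only, and 296.0 in larval brain, the highest (1.70 ± 0.63, adjusted p = 0.216).

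Partners of Numb and Brat had 0 of 5 measured members past the threshold, 0 at an unadjusted p under 0.05 and a median difference of 0.05. The largest differences were those of the Numb-associated kinase gene Nak (1.03 ± 0.96, adjusted p = 0.663) and of mei-P26, which like brat encodes a TRIM-NHL protein (0.40 ± 0.80, adjusted p = 0.854). In both genes larval brain lay inside the embryo culture range. Cell cycle genes had 0 of 7 measured members past the threshold and 5 at an unadjusted p under 0.05, against 17.3% of all genes. All 7 had a positive difference, with a median of 1.76, and for 6 larval brain was above all embryo culture arrays, against 26.2% of all genes. The largest were those of E2f1, a transcription factor gene of S phase entry (3.27 ± 0.95, adjusted p = 0.111), and fzy, an activator of the anaphase-promoting complex (1.92 ± 0.75, adjusted p = 0.249). Both exceeded background on array c alone of the embryo culture arrays, so the sizes of these differences rest in part on background values. Over the 5 arrays CycE had the exact reverse order of the 3′ to middle index, and PCNA that of the floored 3′ to 5′ index. The other measured cell cycle genes had neither order. The part of RNA quality in these differences was not tested.

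The genes whose profile over the 5 arrays was closest to that of pros, by the root mean square distance of log2 values centred per gene, were Tom (0.45), Muc12Ea (0.50) and Jhbp2 (0.58), among 4917 candidates. Tom, a Bearded family gene that restrains Notch signalling, read 235.9, 80.6, 244.6 and 191.5 on arrays a to d and 5640.3 in larval brain. It shares with pros the low value on array b, which was under background for both and is part of what made the distance small. On array d Tom was also under background. Closest to nerfin-1 (151651_at) were Sf3b6 (0.15), a spliceosome gene, Fmr1 (0.24), which encodes an RNA-binding protein, and the Notch target E(spl)m7-HLH (0.24). E(spl)m7-HLH read 399.5, 544.0, 627.6 and 572.6 on arrays a to d and 4801.1 in larval brain. Fmr1 and Jhbp2 did not exceed background on any of arrays a to d (10.8 to 25.7 and 16.9 to 57.8), so their distances rest in part on background values. Over 5 arrays such a distance describes mainly the size of the step to larval brain.

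Markers of the sorted and of other cells give the setting of these values. Sums over a list weigh its brightest probe sets most, such as loco for glia, verm for epidermis and trachea and Mlc2 for muscle. A sum therefore does not show how each marker changed. ChAT, the gene of the driver, exceeded background on all 5 arrays with a mean of 2450 ± 680 (SD, n = 4) for the cultures against 2255 for larval brain (-0.07 ± 0.45, adjusted p = 0.960). The 6 measured neuronal markers summed to between 2729 and 6634 in embryo culture and to 8844 in larval brain, with 0 past the threshold. Larval brain was above all embryo culture arrays for 4 of them (elav, nSyb, brp and fne), against 26.2% of all genes. Of these, elav was under background on arrays a and b, and brp exceeded it on array b only. Over the 5 arrays nSyb and fne had the exact reverse order of the floored 3′ to 5′ index, while elav, brp, ChAT and ChT did not. On arrays a to d elav read 103.8, 61.4, 712.6 and 666.7. The part of RNA quality in these markers was not tested. The median difference of the 6 was 0.97, against -0.07 over all genes. Among them the largest difference was that of the neuronal RNA-binding gene elav, with 386 ± 351 and 3047 (3.33 ± 1.05, adjusted p = 0.147), while ChT, a choline transporter gene, lay inside the embryo culture range (0.39 ± 0.57). The 7 glial markers, a class in which pros is also known to be expressed, summed to 2564 to 4663 and to 2980, with 0 past the threshold, and the defining glial gene repo read 294 ± 180 and 288. The 4 muscle markers summed to 626 to 4888 and 402, and the 5 blood cell markers to 322 to 1893 and 544, with Hml, srp, NimC1 and vkg under background in larval brain and Pxn, inside the embryo culture range, at 450.5 of that sum. None of either list passed. Fat body markers summed to 1192 to 1572 and 484 (0 of 3 passed), and epidermal and tracheal markers to 2763 to 5684 and 3791 (0 of 4). The 4 gut genes, which were chosen from earlier results of these arrays, all fell, from a sum of 26231 to 43498 to 209. The part of these cell types in the results was not tested.

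**Figure D4:**
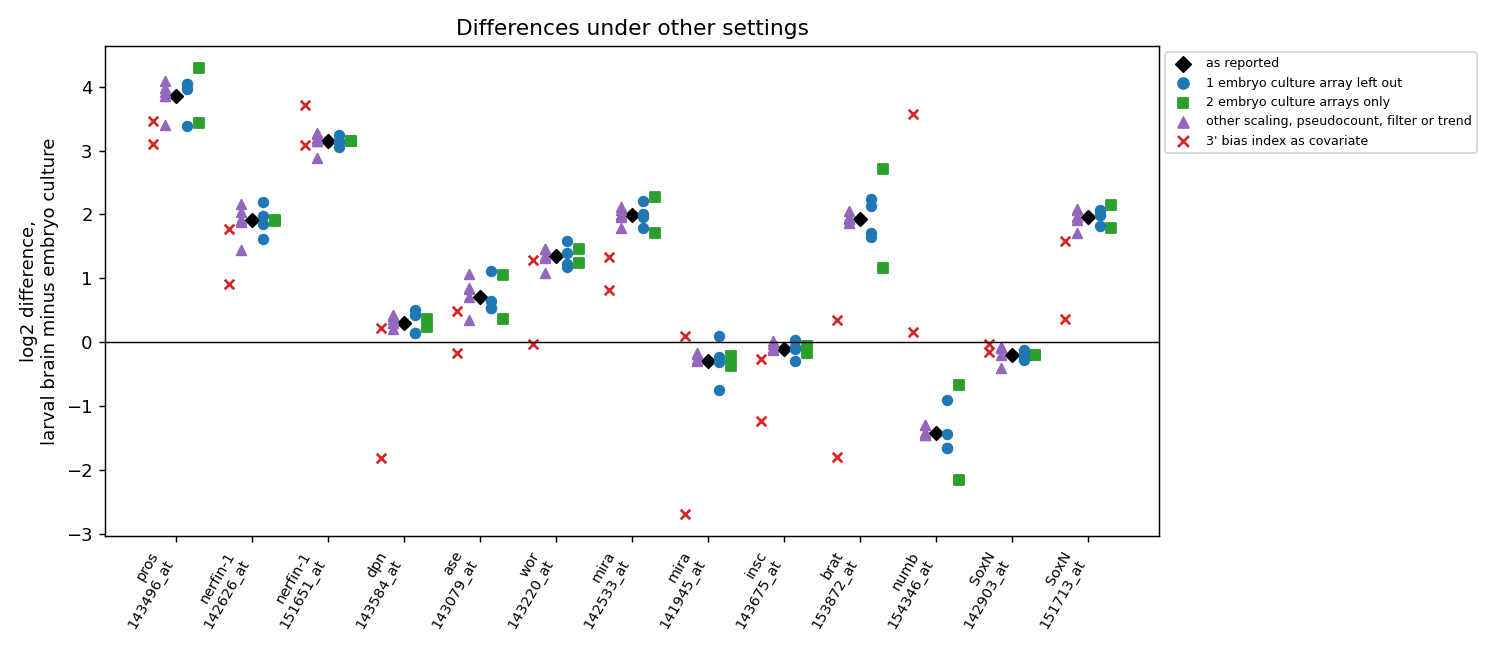
Log2 difference, larval brain minus embryo culture (y axis), of each probe set (x axis) as reported (black diamonds) and under 14 alternatives, by kind, or 13 for the 3 probe sets that the filter on dim values removed. Points of pros lie between 3.10 and 4.29 and those of nerfin-1 (151651_at) between 2.88 and 3.71, while those of brat run from -1.80 to 2.71 and those of numb from -2.15 to 3.58.

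Under the 14 alternatives shown in the plot of differences by setting, pros kept its call in 8 and nerfin-1 (151651_at) in 13. The difference of mira (142533_at) was positive in all 14, from 0.82 to 2.27, and that of SoxN (151713_at) in all 14, from 0.36 to 2.15; they passed the threshold in 2 and 1. For wor it was positive in 13 and for brat in 13, the exception in both being the fit with an index of 3′ to 5′ bias. Fits that only left out embryo culture arrays could not change these signs, since larval brain lay above all 4 arrays.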

How the data were processed

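The authors deposited 1 linear signal intensity per probe set for each of 5 one-colour arrays, with its software, background correction and hybridisation not given in the sources used. The deposited intensities have a mean of 500.06 to 500.08 on each array after trimming 2% at each end, and the median lies between 206 and 257. No detection calls were used. Leaving out 44 controls, 13966 of 14010 probe sets were tested; the annotation gives 12443 of them 1 symbol, 327 several and 1196 none, and 12394 symbols were checked against RefSeq by Entrez identifier (0 changed). No coordinates are given, since the annotation names no build. Above background lay 48.6% to 61.9% of probe sets over the embryo culture arrays, and 68.0% for larval brain.

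The test used log2(intensity + 47.5), where 47.5 is the 20th percentile of the tested values, and limma 3.58.1 under R 4.3.3 (lmFit and eBayes, trend on, two-sided; 3 residual degrees of freedom, 9.11 after moderation; threshold 0.05). The median SE was 0.58, and the number of arrays limits the precision. Python 3.11.15, pandas 2.3.3, NumPy 2.4.6 and matplotlib 3.10.9 made tables and plots. The members and lists were chosen with earlier results of these data known. Genes of a list were counted once, by the brightest probe set; those past the threshold are named, otherwise the 2 with the largest difference above background. For members past the threshold, the 3 closest profiles are named among genes with more than a CG number and above background in larval brain. The list genes with no measured value are 2 of 19 regulators, 10 of 27 polarity genes, 6 of 11 partners and 5 of 12 cell cycle genes; they are not analysed here. At most 14 values were identical between any pair of arrays, so none was taken for a copy.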

Additional observations from a re-analysis of the deposited data

Results flagged for a closer look

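On embryo culture arrays, the highest value of 2 of the 13 probe sets lay far from the other 3. For numb (154346_at) array a read 4880.9, with a gap to the next array of 0.847 of the whole range, above the critical value of Dixon's test for 4 samples. For ase (143079_at) array c read 178.2, with a ratio of 0.88. Chance alone gives such a gap in about 1 in 20 groups. On the log2 scale neither exceeds the critical value (0.705 and 0.794), whereas the low value of pros on array b does (0.889).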

How the results depend on the processing

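The 455 calls over all probe sets (121 higher, 334 lower in larval brain) became 303 without the variance trend (77 higher), 1732 with embryo culture arrays a and b only (779 and 953), 796 with c and d only (305 higher) and 2 with the floored 3′ to 5′ index as a covariate (0 and 2). In that index 5′ signals under background were set to background; the median SE rises from 0.58 to 1.54 in this fit. Leaving out 1 embryo culture array gave 292 to 403 calls, 59 to 91 of them higher (63, 59 and 70 without a, b and c) and 233 to 312 lower; the total was lowest without b. The 2 member probe sets that rose became 1 with quantile normalization, without the trend, with the 3′ to middle index and without array c or d (1 to 2 with any single array left out), 5 with arrays a and b only and 0 with the floored index. In each fit with 1, pros was lost (adjusted p 0.0522, 0.0666 and 0.142 for the first 3). The 5 were pros, nerfin-1 (151651_at), mira (142533_at), brat and SoxN (151713_at).

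Of 179 member differences under alternatives, 158 kept their sign and side of the threshold, 7 lost a call, 4 gained one and 10 changed sign, none of these past the threshold in either fit. With the 3′ to middle index the last were ase (-0.17), mira 141945_at (0.10) and numb (0.16); with the floored index dpn (-1.82), wor (-0.0224), brat (-1.80) and numb (3.58); with median centring insc (0.0102); without array b insc (0.0322, range -0.29 to 0.0322 with any single array left out); and without array d mira 141945_at (0.10, range -0.76 to 0.10). Causes were not tested. Median centring moved the median difference of all probe sets from -0.07 to 0.05 and that of the members from 1.34 to 1.47. Both index fits gave the members a much smaller median, 0.34 for 3′ to middle and 0.36 for the floored index. Over all probe sets the medians of those fits were -0.05 and -0.35. The median SE of the members was 0.76 and 1.61 there, against 0.68 in the main fit. Under every other alternative the member median lay between 1.09 and 1.92. No paired analysis was possible because the groups share only replicate letter a. With 1 larval brain array, that array and its group cannot be told apart.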

Other observations

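A further 3 regulators of neuroblast formation, chosen after their values were seen, had the next largest positive differences of their list, with none past the threshold. The Snail family gene esg stood at 78.4 ± 16.2 (SD, n = 4) in embryo culture, under background on all 4 arrays, and at 633.4 in larval brain, at least 3.6-fold higher than the geometric mean of the 4 background limits, 176 (2.44 ± 0.62, limma adjusted p = 0.0758). The Sox group B gene D, a relative of SoxN, stood at 166 ± 69.5 and 1041.5 (2.42 ± 0.69, adjusted p = 0.104). The Snail family gene sna stood at 613 ± 412 and 1692.1 (1.70 ± 0.86, adjusted p = 0.391). Larval brain was the highest array for each. Of the embryo culture arrays, D exceeded background on a and c only, and sna on all but d. The sizes of their differences thus rest in part on background values. Of the proneural genes, which act when neuroblasts first form, l(1)sc and ac were under background on all 5 arrays, while sc was under it in embryo culture only and read 252.3 in larval brain, at least 1.43-fold higher (0.87 ± 0.70, adjusted p = 0.605).

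Glial cells missing, gcm, the gene that sets glial fate in the embryo, stood at 85.0 ± 56.8, under background on all embryo culture arrays, and at 673.6 in larval brain, at least 3.83-fold higher (2.57 ± 0.77, adjusted p = 0.125). The bound is again the ratio to 176, the geometric mean of the 4 background limits. This gene is 1 of the 7 glial markers above, of which 3 had a positive and 4 a negative difference, with a median of -0.32. It was also picked out after its value was seen.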
